A study of Homo sapiens with 6 samples.

Results

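Keratins are the intermediate filament proteins of epithelial cells. This account describes the chromatin around 55 protein-coding keratin genes in NCI-H1703, an established human lung squamous cell carcinoma line, with and without silencing of the long non-coding RNA DLGAP1-AS2. The genes were chosen by name and place: a symbol of KRT and a number, optionally followed by a letter, on chromosome 12 between 52.1 and 53.0 Mb or on chromosome 17 between 40.6 and 41.7 Mb (GRCh38). This gave 27 genes in the type II cluster on chromosome 12 and 28 in the type I cluster on chromosome 17, of 20037 protein-coding genes in all. No measured value entered the choice.

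A keratin filament is built from obligate pairs of an acidic type I and a basic type II protein, whose genes lie in those clusters. KRT18, a type I gene, lies beside its partner KRT8 in the type II cluster. Pairs mark cell states: KRT8 and KRT18 are made in simple epithelia, KRT5 and KRT14 in the basal layer of stratified epithelia, the KRT6 genes with KRT16 and KRT17 in wounded or stressed epithelium, KRT1 and KRT10 in cornifying epidermis, and the hard keratins in hair and nail. Pathologists use KRT5 to recognise squamous carcinoma and KRT7 in lung adenocarcinoma, and filaments end at desmosomes and hemidesmosomes.

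ATAC-seq marks open DNA by sequencing the places where a transposase inserted adapters into it. All 6 libraries came from NCI-H1703 cells. The treatment label of 3 libraries is silenced DLGAP1-AS2, with ASO in their titles, and that of the other 3 is control, with NC in theirs. Neither the reagents' sequences, nor their doses, nor the time after treatment is given in the sources used here, and open DNA does not measure the RNA that was silenced. A single line cannot stand for other tumours. Nothing says that the libraries of a group came from separate cultures, so p-values measure the spread between these libraries, which may be technical.

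Each library is a list of peaks, intervals of clustered insertions, with a height (the authors' pileup of fragments), a fold enrichment over background and a false discovery rate (FDR). A peak was called strong at an FDR of at most 1e-05. A gene's window is its span plus 5 kb on either side. The lists held 91346 to 170882 peaks on the chromosomes. Control 2, the shortest, stood apart: 2.46% of its peaks were lower than 4, against 48.1% to 52.1% in the other 5 lists, and its background coverage was the highest (0.464 against 0.237 to 0.402). Silenced 3 had the lowest coverage. Read depth is not given, so precision is limited by the number of libraries. Of the squamous markers examined, 1 of 10 (SOX2) had a peak at its start in all 6 libraries and 6 of 10, KRT5 among them, had none in any; of the adenocarcinoma or alveolar markers, 2 of 5 (NKX2-1 and SFTPC) had one in all 6. Of the epithelial markers, 1 of 9 (CLDN7) had a start peak in all 6 libraries and 4 of 9 had none in any. Of the mesenchymal, blood and endothelial markers, 2 of 6 (ZEB1 and ZEB2), 1 of 5 (SPI1) and 0 of 4 had a start peak in all 6 libraries. A peak shows open DNA and not expression, so these counts do not settle the cell type.

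The starts of keratin genes were mostly without a peak. RefSeq promoter windows of 300 bases (250 before the start and 50 after it, GRCh38.p14) were matched by gene identifier for 34 of the 55 genes. The other 21 include KRT7, KRT18, KRT19, KRT14, KRT15, the KRT6 genes, KRT16 and KRT17, so of the simple epithelial, basal and stress keratins only KRT8, KRT20 and KRT5 enter the next counts, and the window listed for KRT8 may not be its main start. Of these 34, 25 (73.5%) had no peak on the window in any library, against 27.1% of the 15843 protein-coding genes with such a window. None of the 34 had one in all 6, against 56.2% of all. Of the 9 keratin genes with any, 8 had it in a single library. The remaining one, KRT20, an intestinal and urothelial keratin, had a peak in 4 libraries. The 250 bases before 5 starts are printed to show the contrast: KRT20; KRT86-AS2, an antisense transcript inside KRT86 whose start carried a peak in all 6 libraries; and KRT10, KRT5 and KRT35, whose windows carried none. Capitals mark exact matches to the motifs searched, on either strand. The matches found here were to TATAAA and to CCAAT, which in KRT10 lies on the other strand.
KRT20 (chr17:40885243-40885492, minus strand): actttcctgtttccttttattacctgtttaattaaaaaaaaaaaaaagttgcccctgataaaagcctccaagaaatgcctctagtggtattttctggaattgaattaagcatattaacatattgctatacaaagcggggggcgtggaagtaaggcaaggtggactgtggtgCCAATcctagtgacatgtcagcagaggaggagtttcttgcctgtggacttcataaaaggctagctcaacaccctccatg
KRT86-AS2 (chr12:52279157-52279406, minus strand): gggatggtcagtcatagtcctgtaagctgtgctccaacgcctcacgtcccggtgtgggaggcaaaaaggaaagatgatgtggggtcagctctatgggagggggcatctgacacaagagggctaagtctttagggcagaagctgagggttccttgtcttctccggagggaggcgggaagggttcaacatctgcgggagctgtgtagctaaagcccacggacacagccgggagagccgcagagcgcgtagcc
KRT10 (chr17:40822615-40822864, minus strand): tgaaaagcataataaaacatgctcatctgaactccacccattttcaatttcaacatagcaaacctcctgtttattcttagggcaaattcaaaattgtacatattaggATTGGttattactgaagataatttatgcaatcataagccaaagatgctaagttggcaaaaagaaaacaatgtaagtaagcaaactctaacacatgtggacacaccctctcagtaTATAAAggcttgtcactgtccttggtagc
KRT5 (chr12:52520395-52520644, minus strand): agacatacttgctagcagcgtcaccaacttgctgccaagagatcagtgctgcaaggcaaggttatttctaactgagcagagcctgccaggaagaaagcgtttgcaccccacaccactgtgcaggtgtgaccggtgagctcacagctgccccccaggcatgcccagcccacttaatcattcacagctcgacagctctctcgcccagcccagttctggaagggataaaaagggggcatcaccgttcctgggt
KRT35 (chr17:41481152-41481401, minus strand): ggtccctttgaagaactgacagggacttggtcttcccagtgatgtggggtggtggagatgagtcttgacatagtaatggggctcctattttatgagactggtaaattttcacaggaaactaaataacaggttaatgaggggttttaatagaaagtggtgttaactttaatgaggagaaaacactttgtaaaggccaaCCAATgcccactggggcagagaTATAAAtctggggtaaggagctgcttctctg

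These stretches differ in the letters they hold. In KRT10 and KRT35 the first printed base of TATAAA stands 29 and 31 bases before the start, and that of CCAAT 143 and 53 bases before it. KRT20 has CCAAT at 79 bases. Neither KRT5 nor KRT86-AS2 holds an exact match to any of the 5 motifs searched. GC content was 34.8% for KRT10, 41.2% for KRT20 and 43.2% for KRT35, and 56% for KRT5 and 58.8% for KRT86-AS2. Across all 38 listed windows of 300 bases of the 34 keratin genes, TATAAA, the core of the TATA box, was found in 21 (55.3%), against 9.47% of 22199 windows of protein-coding genes. GGGCGG, the GC box bound by Sp1-like factors, was found in 6 (15.8%) against 56.3%. CCAAT stood in 18 (47.4%) against 34.7%, and GGAATG, the letters preferred by the TEAD partners of YAP, in 6 (15.8%) against 12.2%. TGANTCA, the AP-1 site, was found in none, against 6.15% of all windows. Both strands were searched, and none of these motifs contains another. A match is a description of these letters and not a binding site.

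For genes with no listed window, a peak whose midpoint lay within 1 kb of either end of the span was counted as a start peak, since the gene table gives no strand. By this mixed measure 13, 10 and 8 keratin genes had a start peak in silenced libraries 1, 2 and 3, and 4, 8 and 5 in control libraries 1, 2 and 3. Between 7.27% and 23.6% of the keratin genes were thus covered per library, against 59.0% to 65.1% of all protein-coding genes. Only KRT80, a keratin found in many epithelia, had a start peak in all 6 (1.82% of keratin genes, against a background of 54.7% of all genes). KRT78 had one in 5 libraries, and KRT18, KRT20 and KRT23 in 4 each. The KRT18 region called in its 4 libraries lay 613 bp from the upper end of the span. A different KRT18 region, called in all 6 libraries, had its midpoint 1102 bp from the lower end, just past the limit. Without a strand, neither end was taken as the KRT18 start. Those of KRT78 and KRT23 lay at different ends of the span in different libraries. Some libraries shared an end, but no single place held the start peaks of all the libraries counted. No library had one for 30 keratin genes (54.5%, against 26.1% of all). The count depends on the position used for a start: within 1 kb of either span end, for all genes, KRT80, KRT8 and KRT10 were covered in all 6 libraries. A peak just outside a listed window is not counted, and a gene's listed starts may be incomplete.

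**Figure D1:**
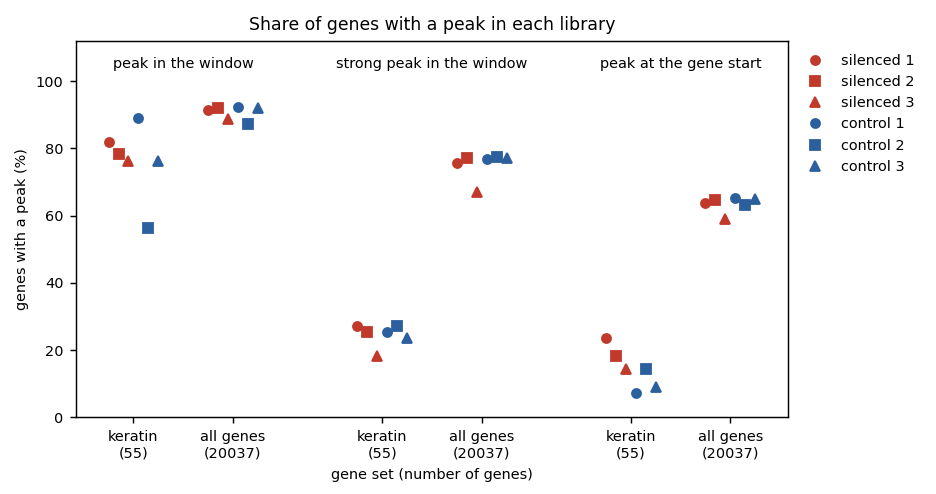
Share of genes with a peak in each library (vertical axis, percent), for the 55 keratin genes and all 20037 protein-coding genes, by 3 measures: any peak in the window, a strong peak in the window and a peak at the gene start. Red points are silenced and blue points control libraries, and the shape gives the replicate. Strong peaks reached 18.2% to 27.3% of keratin genes against 67.0% to 77.3% of all genes, and the lowest keratin value for any peak, 56.4%, is control 2.

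Per length, the keratin windows held more peaks than those of all protein-coding genes in each of the 6 libraries, and a smaller share of them was strong. The merged windows cover 994 kb and held 93, 93 and 76 distinct peaks in the silenced libraries and 100, 53 and 79 in the controls. This is 5.33 to 10.1 peaks per 100 kb, against 4.28 to 7.0 in the merged windows of all protein-coding genes. Strong peaks numbered 18, 17 and 11 in the silenced libraries and 18, 18 and 17 in the controls, or 1.11 to 1.81 per 100 kb against 1.30 to 1.93. This was 19.4%, 18.3% and 14.5% of the keratin peaks in the silenced libraries and 18%, 34.0% and 21.5% in the controls, against 20.7%, 21.6% and 20.2%, and 20.9%, 40.9% and 22.03%, of all peaks of the same lists. These differences were not tested. Keratin genes are short: the median span was 6.43 kb against 24.1 kb for all protein-coding genes. The median gene mean was accordingly 1.33 peaks per keratin window against 3.17, while the median per 10 kb of window was 0.763 against 0.81. The type I windows held 4.42 to 9.54 peaks per 100 kb and the type II windows 6.03 to 10.8.

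Most of these peaks were low. The median height of keratin peaks was 4, 4 and 3 in silenced libraries 1 to 3 and 4, 7 and 5 in the controls. Peaks lower than 4 made up 41.9%, 30.1% and 57.9% of the keratin peaks in the silenced libraries and 47%, 5.66% and 31.6% in the controls. The low share in control 2 is that of its whole list. At least 1 peak of any height was found for 45, 43 and 42 keratin genes in the silenced libraries and 49, 31 and 42 in the controls. A window peak in all 6 libraries was found for 22 of 55 genes (40%), against 83.2% of all genes, and KRT25, a root sheath keratin, was the 1 gene with none in any library. A strong peak was found for 15, 14 and 10 genes in the silenced libraries and 14, 15 and 13 in the controls. It was present in all 6 libraries for 9 genes (16.4%, against 64.9% of all): KRT80, KRT7, KRT84 and KRT8 on chromosome 12, and KRT28, KRT13, KRT15, KRT19 and KRT14 on chromosome 17. In 36 genes (65.5%, against 18.2%) no library had one.

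**Figure D2:**
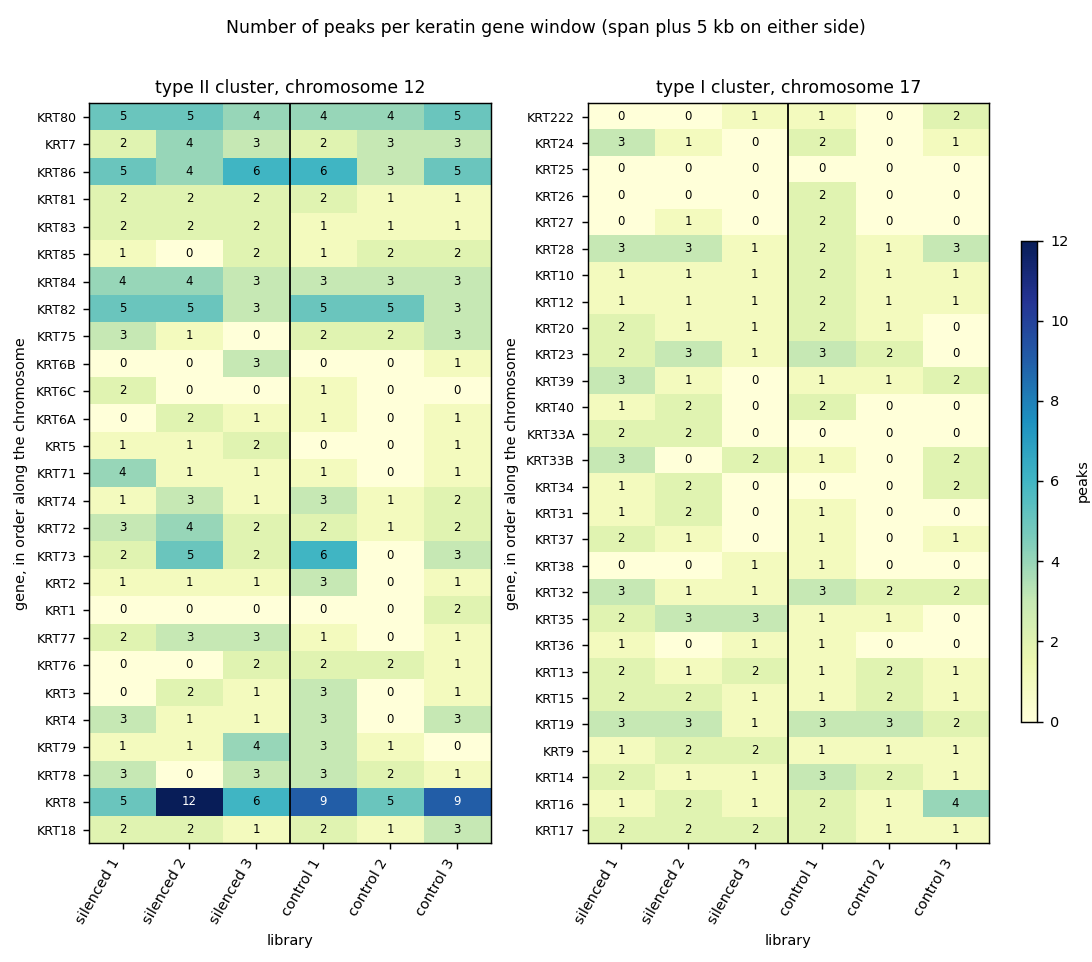
Number of peaks in the window of each keratin gene (cell numbers and colour) in the 3 silenced and 3 control libraries, with genes in chromosome order from top to bottom. KRT8 has the most peaks, between 5 and 12, KRT25 has none, and the control 2 column holds the most empty cells. Windows of neighbouring genes overlap, so a peak can count for several genes.

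Among the keratin roles, the simple epithelial keratins held the most peaks. KRT7, KRT8, KRT18, KRT19 and KRT20 averaged 3.2 peaks per gene, against 4.82 over all protein-coding genes. Their median per 10 kb of window was 1.22, against 0.81. These differences were not tested. KRT8, the type II keratin of simple epithelia, had 5, 12 and 6 peaks in the silenced libraries and 9, 5 and 9 in the controls, over a span of 52.7 kb. KRT18, its type I partner, had 2, 2 and 1 against 2, 1 and 3. The spans of the pair overlap in the table, and a region there (chr12:52949739-52950175) was called in every library, with heights of 8, 5 and 9 in silenced and 6, 9 and 7 in control cells. Neither gene separates the groups. KRT7, a marker of glandular epithelium, had 2, 4 and 3 peaks against 2, 3 and 3, with a strong region inside its span (chr12:52243936-52244658) at heights of 11, 20 and 10 against 11, 16 and 11. KRT19, the smallest keratin and one made in many epithelia, had 3, 3 and 1 peaks against 3, 3 and 2. KRT20 had 2, 1 and 1 against 2, 1 and 0, and its start region (chr17:40885254-40885577) had heights of 4 and 6 in silenced 1 and 2, 5 and 6 in control 1 and 2, and no peak in replicate 3 of either group. All 5 genes overlapped between groups.

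The windows of the basal pair differed in the height of their peaks. KRT5, the type II partner, had 1, 1 and 2 peaks in the silenced libraries and 0, 0 and 1 in the controls, and the tallest had a height of 3, 4 and 3 against 0, 0 and 4. KRT14, the type I partner, had 2, 1 and 1 peaks against 3, 2 and 1. The tallest keratin region of the data lay near it, at chr17:41579481-41580116, 2163 bp below the lower end of its span. Its heights were 46, 45 and 24 in silenced and 31, 54 and 35 in control libraries, where KRT5 reached at most 4. KRT15, a type I keratin of basal progenitor cells, had 2, 2 and 1 peaks against 1, 2 and 1. Its window shares with KRT19 a strong region, chr17:41521479-41522279, 1338 bp below KRT19, with heights of 18, 15 and 14 against 16, 18 and 16. By fold enrichment within each list, that region stood between the top 31.8% (silenced 3) and the top 66.4% (silenced 2) of shared regions, and the groups overlapped. KRT5 had too few peaks to be tested.

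The stress keratins had no strong peak in any library, 5 of 5. KRT6A had 0, 2 and 1 peaks in the silenced libraries and 1, 0 and 1 in the controls. KRT6B had 0, 0 and 3 against 0, 0 and 1, and KRT6C had 2, 0 and 0 against 1, 0 and 0. None of their peaks was higher than 3, and the 3 genes are near-identical copies whose reads may map to more than 1 place, so their numbers are uncertain. KRT16 had 1, 2 and 1 peaks against 2, 1 and 4. KRT17 had 2, 2 and 2 against 2, 1 and 1. Their windows share peaks, the tallest of which reached 9, 9 and 6 in silenced and 8, 6 and 8 in control cells. A region between them, chr17:41614020-41614494, 1253 bp above the upper end of KRT16, was called in the 3 controls (heights 7, 6 and 5) and in no silenced library. None of these calls was strong, and each silenced library had a peak elsewhere in the KRT16 window, with tallest heights of 9, 9 and 6. The region was chosen with its values known, as the 1 of 284 keratin regions with that pattern (0.2% of all 507440 merged regions). The opposite pattern was found in 0 (0.13%).

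Keratins of skin, mucosa and hair were mostly without strong peaks. No library had one for 4 of 5 suprabasal skin keratins, 5 of 6 mucosal and corneal ones, 6 of 9 of the hair root sheath and companion layer and 10 of 17 of the hair shaft. KRT10, the type I keratin of cornifying epidermis, had 1, 1 and 1 peaks against 2, 1 and 1. Its region in all 6 libraries (chr17:40818711-40819273) lies inside the span on the listed start of the antisense transcript KRT10-AS1, with heights of 8, 8 and 3 against 3, 9 and 6, and the printed KRT10 start at the other end of the gene had none. KRT1, its type II partner, had 2 peaks in control 3 and none elsewhere. KRT13, the type I keratin of wet mucosa, had 2, 1 and 2 peaks against 1, 2 and 1. A region 3861 bp below its span (chr17:41496713-41497120) was the next tallest of the keratin windows, at 25, 35 and 27 against 29, 41 and 41.

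**Figure D3:**
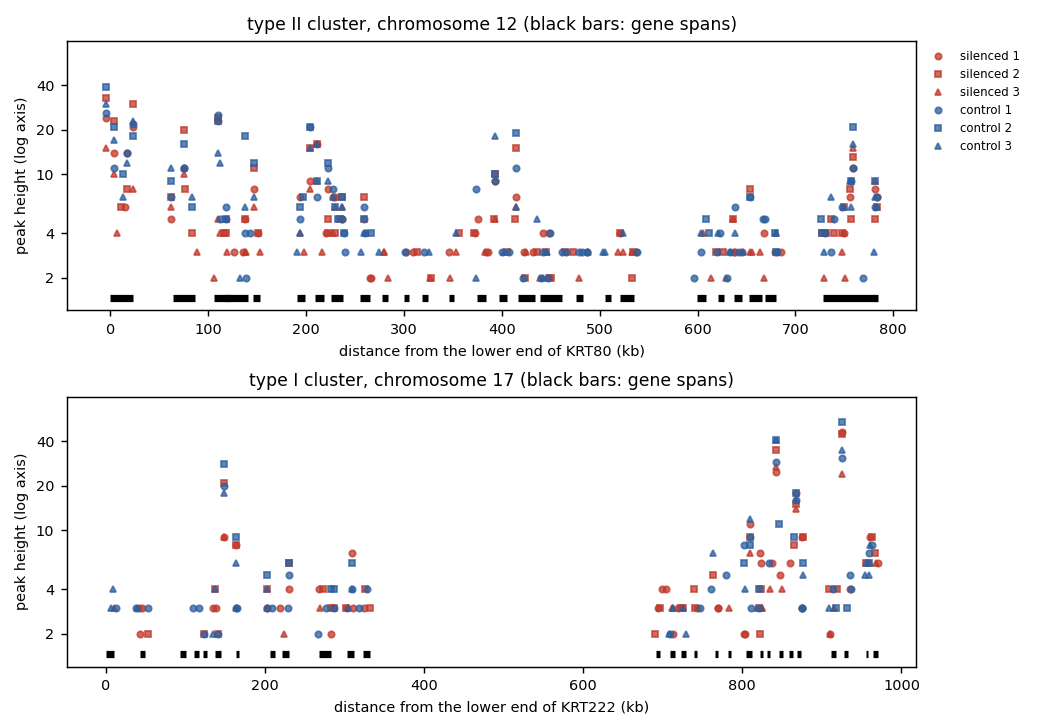
Height of every peak in the keratin windows (vertical log axis) against its distance in kb from the lower end of KRT80 (top, type II cluster) or of KRT222 (bottom, type I cluster). Colour and shape give the library, and black bars the gene spans. Heights above 20 recur in both groups at the KRT80 end of the type II cluster and near KRT13 and KRT14 in the type I cluster, while no peak is higher than 4 from KRT6B to KRT5 or higher than 7 from KRT33A to KRT38. The broad gap in the lower panel holds no gene of the set.

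Merging all lists gave 284 regions in the keratin windows. Of these, 205 (72.2%) came from a single library and 21 (7.39%) from all 6, close to the 74.1% and 7.35% among all 507440 regions. The 21 shared regions comprised 14 in the type II and 7 in the type I cluster, with 10 inside a span and 11 in a flank. Their median height was 12.5, against 16.5 for the 37284 shared regions of the series, and 10 were strong in all 6 libraries. A listed start of any RefSeq gene lay under 2 of the 21 (9.52%, against 25.8%), and in both it was the start of an antisense transcript, KRT86-AS2 (printed above) or KRT10-AS1. The table of starts is incomplete, so a region off a listed start may still lie on an unlisted one.

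The 5 tallest shared regions included 2 at KRT80 and 1 at KRT86, a hard keratin, besides those near KRT14 and KRT13. At KRT80, the region below the span (chr12:52163893-52164394, 4602 bp away) had heights of 24, 33 and 15 in silenced and 26, 39 and 30 in control libraries. The other, at the gene's upper end (chr12:52192023-52192745, 9 bp above the span), had 21, 30 and 8 against 22, 18 and 23. The region on the KRT86-AS2 start (chr12:52278964-52279546) had 23, 24 and 5 against 25, 23 and 14. Silenced 3, the library with the lowest background coverage, was the lowest in all 3, and the groups overlapped in each. Nearer the middle of the order, the KRT8 region with a strong peak in every library (chr12:52927284-52927771) lay inside its span, 565 bp from the listed window, at 11, 13 and 15 against 11, 21 and 16.

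**Figure D4:**
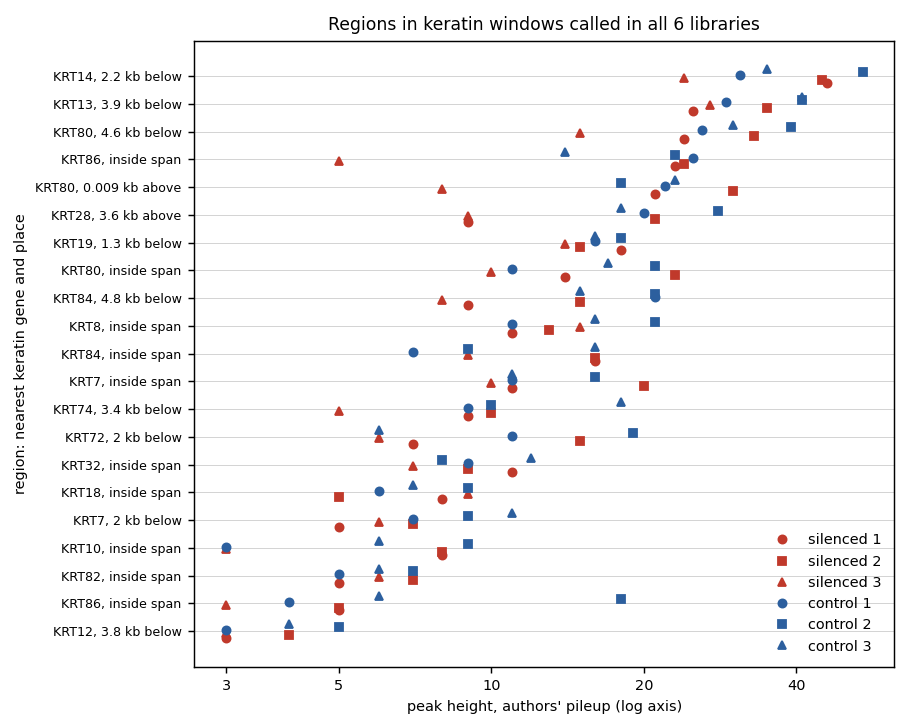
Height (horizontal log axis, the authors' pileup) of the 21 regions in keratin windows that were called in all 6 libraries, ordered by median height and named by the nearest keratin gene and place. Red points are silenced and blue points control libraries, with the shape giving the replicate. The medians fall from 40 near KRT14 to 3.5 near KRT12, and silenced 3 often gives the leftmost point.

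Silencing moved no keratin region past the threshold. Heights are not normalized between lists, so each region's fold enrichment was ranked within its list among the 37284 shared regions and turned into a normal score. In limma with Benjamini-Hochberg adjustment over all of them, 0 of 21 keratin regions passed an adjusted p of 0.05 (0.0% of all regions), and the smallest adjusted p was 0.963. At an unadjusted p under 0.05 there were 2 of 21, against a background of 4.68%, a count too small to compare with that share. Scores were higher in silenced cells for 13 and lower for 8, with a median difference of 0.09 against 0.01 over all regions. The region near KRT14 ranked in the top 6.2%, 9.1% and 10.9% of shared regions in the silenced libraries and the top 17.4%, 5.3% and 14.6% in the controls, a score difference of 0.17 (SE 0.22, limma adjusted p = 0.97 by Benjamini-Hochberg). The KRT13 region differed by -0.13 (SE 0.22), the KRT80 regions by -0.26 (SE 0.24) and 0.09 (SE 0.33), and the KRT86 region by -0.24 (SE 0.40). The 5 differences were between -0.26 and 0.17, and none passed the threshold. That of KRT14 was 0.0333 without control 1 and 0.374 without control 2, and those of the other 4 regions change sign when certain single libraries are left out.

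The 2 regions with the smallest unadjusted p were both lower in silenced cells, and were chosen with their values known. A region 4803 bp below KRT84, a hard keratin of the tongue and nail (chr12:52372551-52373009), had heights of 9, 15 and 8 in silenced and 21, 21 and 15 in control libraries. It lies between KRT85 and KRT84, and its nearest listed start was that of KRT85, 4820 bp away. The region's score differed by -0.75 (SE 0.26, unadjusted p = 0.0104, adjusted p = 0.963 in limma with Benjamini-Hochberg). It was the 1 keratin region whose ranks did not overlap between groups (4.78% of all regions lay higher in every control), and 0 lay higher in every silenced library (5.39%). Near KRT28, a root sheath keratin, a region 3582 bp above the span (chr17:40803541-40803903) had 9, 21 and 9 against 20, 28 and 18, a score difference of -0.64 (SE 0.27, unadjusted p = 0.0296 in limma, adjusted p = 0.963 by Benjamini-Hochberg). Its heights overlapped between groups.

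Peak numbers per gene gave no keratin call either. Numbers were scaled to 100000 peaks of the list and tested in limma on log2(value + 0.5), a scale that understates the change of low genes, over 17918 genes with a mean of at least 1 peak. That left 39 keratin genes tested and 16 with too few peaks. In limma with Benjamini-Hochberg adjustment over all genes, 0 of 39 passed (0.0% of all genes), with a smallest adjusted p of 0.993, and at an unadjusted p under 0.05 there were 3 (background 3.15%, 564 genes). The median log2 difference, silenced minus control, was 0.07 over the 39 genes and -0.08 over all genes tested, with 22 above 0 and 17 below. No keratin gene had a window peak in all 3 libraries of a group and none of the other (0.0799% of all genes in silenced cells only and 0.0599% in controls only).

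**Figure D5:**
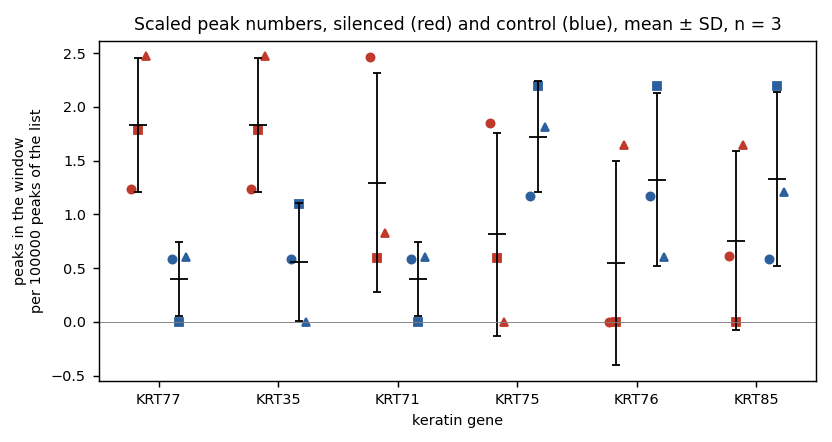
Peaks in the window per 100000 peaks of the list (vertical axis) for the 3 tested keratin genes with the smallest unadjusted p in each direction. Points are libraries, red silenced and blue control, and bars give the mean ± SD (n = 3), which can reach below 0. The silenced points of KRT77 and KRT35 lie above all their control points, and those of the other 4 genes overlap the controls.

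The 3 tested genes with the smallest unadjusted p in each direction had at most 4 peaks in any library. KRT77, a type II keratin of the sweat duct, had 2, 3 and 3 peaks in silenced and 1, 0 and 1 in control libraries, a log2 difference of 1.43 (SE 0.45, unadjusted p = 0.00395). KRT35, a type I keratin of the hair shaft, had 2, 3 and 3 against 1, 1 and 0 (log2 difference 1.26, SE 0.46, unadjusted p = 0.0113). Both sets of numbers were higher in every silenced library, but no peak of either gene was strong. The tallest reached 4, 4 and 3 against 3, 0 and 4 at KRT77 and 7, 4 and 3 against 3, 4 and 0 at KRT35, whose printed start carried none. KRT71, a root sheath keratin, had 4, 1 and 1 against 1, 0 and 1 (log2 difference 0.95, unadjusted p = 0.0724). In the other direction, KRT75, of the companion layer, had 3, 1 and 0 peaks against 2, 2 and 3 (log2 difference -1.0, SE 0.48, unadjusted p = 0.0470). KRT76, of the hard palate, had 0, 0 and 2 against 2, 2 and 1 (-1.07), and KRT85, of the hair shaft, had 1, 0 and 2 against 1, 2 and 2 (-0.68). The adjusted p of all 6, from limma with Benjamini-Hochberg adjustment, was 0.993, and the last 4 overlapped between groups. Single libraries move these values: KRT35 was 0.79 without control 3, KRT71 was 0.57 without control 2, and KRT75 was -0.44 without silenced 3 and -1.56 without silenced 1. KRT76 was -1.77 without silenced 3, and KRT85 was -0.14 without silenced 2, -0.36 without control 2 and -1.19 without silenced 3.

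Scaled numbers were higher in every silenced library than in any control for 6 of 55 keratin genes (background 2.86%) and lower for 0 (3.23%). The 6, named after their values were seen, were KRT77, KRT35, KRT72, KRT83, KRT81 and KRT17. The unscaled numbers of 3 of them, KRT77, KRT35 and KRT83, did not overlap either. KRT83, a hair shaft keratin, had 2, 2 and 2 peaks against 1, 1 and 1. Among the alternatives tried, it passed the test without scaling by list length (35 genes called) and with equal list sizes (80 called), where KRT32 passed too. Their peaks number 1 to 3 per library. None of the tested genes named for their role passed. Their log2 differences were 0.01 for KRT7, -0.15 for KRT8, -0.22 for KRT18, -0.34 for KRT19, 0.31 for KRT20, -0.47 for KRT14, 0.09 for KRT15, -0.55 for KRT16 and 0.37 for KRT17, with standard errors between 0.33 and 0.50. KRT80 differed by -0.01 (SE 0.34).

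The number of keratin genes with a start peak averaged 10.3 ± 2.52 (SD, n = 3) with silencing and 5.67 ± 2.08 (SD, n = 3) without, a difference of 4.67 genes. The groups met at 8 genes, in silenced 3 and control 2. Over all protein-coding genes the order of the means was the opposite, with 12516 ± 616 genes (SD, n = 3) with silencing and 12904 ± 197 without. Those groups overlapped too, at 12780, 12955 and 11812 genes in silenced 1 to 3 against 13044, 12679 and 12990 in the controls. Among strong peaks alone the keratin difference was -0.333 genes. At a height of at least 4 it was 1.67, and with equal list sizes 1, so most of the keratin difference lay in low peaks. A window peak was found for 43.3 ± 1.53 genes (SD, n = 3) against 40.7 ± 9.07, and without control 2 the difference of 2.67 became -2.17. Distinct peaks numbered 87.3 ± 9.81 against 77.3 ± 23.5, a difference of 10 that became -2.17 without control 2. Strong window peaks were found for 13 ± 2.65 genes against 14 ± 1. In all 3 controls and no silenced library only KRT82, a hair cuticle keratin, had one (background 0.265%). None had the opposite pattern (0.025%). The region behind it, chr12:52390843-52391539, had heights of 8, 5 and no peak in silenced libraries 1 to 3 and 11, 12 and 9 in the controls. It lies 2392 bp below the KRT82 span and also in the KRT84 window. That window held 2, 2 and 2 strong peaks in the silenced libraries and 3, 3 and 3 in the controls.

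Genes whose proteins anchor or accompany keratin filaments were examined in the same way. Of 23 genes of desmosomes, hemidesmosomes and cytolinkers, 10 (43.5%, against 54.7% of all protein-coding genes) had a start peak in all 6 libraries, DSP, JUP, PLEC and ITGA6 among them, and 6 had none in any: DSG1, DSG3, DSG4, DSC1, DSC3 and COL17A1. The cadherins of stratified epithelium were in the second group. Of 14 other intermediate filament genes, 5 (35.7%: SYNM, LMNA, LMNB1, LMNB2 and INA) had a start peak in all 6. Both shares lay below that of all genes and above the 1.82% of the keratins, and these differences were not tested. None of the 34 tested genes of both lists passed in limma with Benjamini-Hochberg adjustment, and 1 had an unadjusted p under 0.05, near the background of 3.15% of all genes. That gene, DSC3, a desmosomal cadherin of basal layers, had 2, 7 and 1 peaks in silenced and 0, 0 and 4 in control libraries (log2 difference 1.29, SE 0.58, unadjusted p = 0.0342), which overlap. The median log2 difference over the 34 genes was -0.14, against -0.08 over all genes tested.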

How the data were processed

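ATAC-seq peak lists of 6 NCI-H1703 libraries (3 silenced, 3 control, grouped by their treatment labels) were analysed, 1 list per library. Per the submitters' processing notes, Trimmomatic 0.36, Bowtie2 2.2.6, Picard 2.8.2, MACS2 2.1.1, bedtools 2.25.0 and GRCh38 were used; their settings, any transposase shift and the treatment of multiply mapped reads are not given in the sources used here. Per the file headers, the authors deposited for each peak a fold enrichment (a ratio), a p-value, an FDR (an adjusted p-value) and a pileup signal, each used only inside its own list, for description, ranking and filtering. No deposited p-value exceeded 0.00987, and no peak was shorter than 200 bp. Libraries started from 10000 to 50000 cells per the labels.

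Gene spans and promoter windows came from RefSeq tables of GRCh38.p14, without strand (spans) or exons. Regions were merged at an overlap of 1 bp. Peak numbers and rank scores were fitted with limma 3.58.1 (lmFit, eBayes with trend) in R 4.3.3, over all genes or shared regions, without covariates, with Benjamini-Hochberg adjustment and a threshold of 0.05. The procedures were tested on simulated data, with gene changes placed only in genes with a mean of at least 5 peaks. Of the keratins only KRT8 reached that mean (7.67), so the simulation does not cover the peak numbers of the others. Counts over the keratin genes were described without a test. Named were keratins with a start peak in all 6 libraries, the 3 smallest unadjusted p in each direction, keratins with window peaks in all libraries of 1 group only, the 5 tallest shared regions, and 13 simple, basal and stress keratins. The members and lists were chosen with earlier results of these data known. Alternatives changed scaling, filters, pseudocount, flank, start definition and libraries. The replicate numbers were checked for pairing.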

Additional observations from a re-analysis of the deposited data

How the results depend on the processing

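The count of protein-coding genes passing the peak number test was 0, and became 80 with equal list sizes, 35 with log2(peaks + 1) and no scaling by list length, and 6 with no filter on low values. With equal lists the keratins KRT83 (higher in silenced cells) and KRT32 (lower) were among them, each at an adjusted p of 0.000767 (limma, Benjamini-Hochberg), and without scaling KRT83 alone at 0.0396; KRT83's unscaled numbers do not vary within either group. The count was 0 under every other setting, each single library left out included (range 0 to 0), and the count of regions was 0 throughout (range 0 to 0), although 1467 to 2379 regions had an unadjusted p under 0.05 with a library left out. The replicate numbers did not pair the libraries: correlations of same-numbered deviations were 0.102, -0.163 and -0.148, and with the replicate number as a block 0 genes and 0 regions passed.

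The silenced minus control difference in keratin genes with a start peak (4.67) was -0.333 at an FDR of at most 1e-05, 1.67 at a height of at least 4 and 1 with equal lists, and ranged from 3.33 to 5.83 with single libraries left out. The 6 genes whose numbers did not overlap became 2 at the strict FDR, 3 with equal lists and 3 unscaled, and 6 to 13 with single libraries left out. Leaving out a library can only keep or raise this count. The share over all genes was found in the main setting alone (2.86% higher with silencing, 3.23% lower). The other counts therefore have no background and are not read further. Genes with a window peak ranged from a difference of -2.17 to 6.83 and distinct peaks from -2.17 to 21.3, both lowest without control 2. Distinct peaks differed by 21.3 without control 1 and 15.7 without silenced 3. The cause was not tested. Restricting lists to the strict FDR moved the median log2 difference of all genes from -0.08 to 0.20, the same as the keratin median there (10 tested). Genes with the same peak numbers share a single value after scaling by list length, so the equal medians are not read further.

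For the 6 keratin genes with the smallest unadjusted p, 0 of 79 alternative values changed sign, with limma adjusted p from 0.0575 to 1. Settings in which a gene had too few peaks to be tested gave no value. None of the 6 could be tested at the strict FDR, and only KRT75 and KRT85 at a height of at least 4. The genes were chosen by their values in these data, so the kept signs are no independent check. Leaving out 1 library moved the log2 difference of KRT35, KRT71, KRT75, KRT76 and KRT85 by over 1.5 times. KRT85 ranged from -1.19 (without silenced 3) to -0.14 (without silenced 2). For the 5 tallest regions, 6 of 45 alternative values changed sign, all with a single library left out. The KRT14 region ranged from 0.0333 (without control 1) to 0.374 (without control 2). The score difference of the KRT13 region ranged from -0.284 (without silenced 3) to 0.0210 (without control 3), and that of the lower KRT80 region from -0.475 (without control 1) to 0.0132 (without control 2). The KRT86 region ranged from -0.573 (without silenced 1) to 0.322 (without silenced 3) and was 0.0250 without control 1. The upper KRT80 region ranged from -0.136 (without silenced 2) to 0.400 (without silenced 3) and was -0.0521 without control 2. With 3 libraries a group, low peaks and unknown read depth, differences of 1 or 2 peaks per gene could not be resolved.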
